A study of Mus musculus with 20 samples.

Results

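The regions described here are intergenic stretches of the mouse genome that carried a peak of histone H3 lysine 27 acetylation (H3K27ac) in every one of 7 peak lists from RAW264.7 cells, under all treatments. They were chosen by measured peak presence. Consensus regions were stretches covered by at least 2 of the 7 lists of replicates 1 and 3, merged where they touched. Of 18659 consensus regions, 1244 (6.67%) were overlapped by all 7 lists, lay outside every protein-coding gene and were over 5 kb from every gene end. A region is called held by a list when at least 1 bp of it is covered by a peak of that list. All 7 lists held 8993 consensus regions in all, of which 5864 were at gene ends, 1885 lay within genes and the 1244 were intergenic. Another 1961 intergenic regions were held by 2 to 6 of the lists.

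RAW264.7 is an established mouse macrophage-like line that can form osteoclasts, the cells that resorb bone. The cells were untreated, treated for 4 h with the osteoclast-inducing cytokine RANKL at 50 ng/ml, treated for 4 h with RANKL and the BET inhibitor I-BET at 500 nM, or treated for 4 h with I-BET alone. Chromatin immunoprecipitation and sequencing gave 1 peak list for each of 10 libraries, numbered as replicates 1, 2 and 3 of the first 3 groups and as replicate 3 of I-BET alone. Nothing in the labels says that replicates were grown separately, so a p-value here reflects library-to-library spread that could be purely technical.

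H3K27ac is deposited by the acetyltransferases p300 and CBP at active promoters and enhancers, and away from genes it is widely used to find active enhancers. Distal acetylated regions in macrophages are known to be set up by lineage factors such as PU.1 and C/EBP together with AP-1. BET proteins are readers of acetylated histones, and BET inhibitors displace them from chromatin without removing the acetyl groups themselves. An intergenic acetylated region may also be the promoter of a non-coding RNA, such as a long non-coding RNA (lncRNA) or the precursor of a microRNA.

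The region sequences themselves are not printed. Where an annotated non-coding transcript starts inside a region, the bases around that start are known: RefSeq gene models on GRCm38.p6 gave 173 such starts with a sequence, from 149 genes, each as a window of 250 bases before and 50 bases after the start. The windows below show the start in the widest region (Malat1), a start with matches to both PU.1 and C/EBP (Dleu2), the host gene of let-7c (Mir99ahg), a start within the regions nearest to Cebpb (Gm14321) and the region farthest from any coding gene (Gm13470). Capitals mark matches to TGANTCA (AP-1), GAGGAAGT (PU.1) or TTGCNNAA (C/EBP) on either strand.
Malat1, chr19:5802623-5802922, minus strand: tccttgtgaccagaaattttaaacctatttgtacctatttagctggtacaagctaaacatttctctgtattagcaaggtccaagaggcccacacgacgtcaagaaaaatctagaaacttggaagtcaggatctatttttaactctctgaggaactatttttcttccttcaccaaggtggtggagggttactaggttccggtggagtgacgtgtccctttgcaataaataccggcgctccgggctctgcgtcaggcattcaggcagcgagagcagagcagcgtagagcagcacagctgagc
Dleu2, chr14:61682324-61682623, minus strand: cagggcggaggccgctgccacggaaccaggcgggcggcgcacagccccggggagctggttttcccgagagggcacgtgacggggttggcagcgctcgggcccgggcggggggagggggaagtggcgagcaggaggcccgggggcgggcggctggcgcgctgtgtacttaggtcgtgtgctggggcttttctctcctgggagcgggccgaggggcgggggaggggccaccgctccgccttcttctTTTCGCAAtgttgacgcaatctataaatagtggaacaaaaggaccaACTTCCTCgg
Mir99ahg, chr16:77329078-77329377, plus strand: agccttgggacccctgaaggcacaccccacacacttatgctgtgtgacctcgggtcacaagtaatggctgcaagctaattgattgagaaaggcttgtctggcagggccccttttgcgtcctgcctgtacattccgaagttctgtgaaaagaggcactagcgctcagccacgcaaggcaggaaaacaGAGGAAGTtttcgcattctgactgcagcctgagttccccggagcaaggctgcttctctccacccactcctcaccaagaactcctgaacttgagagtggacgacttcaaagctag
Gm14321, chr2:167777241-167777540, plus strand: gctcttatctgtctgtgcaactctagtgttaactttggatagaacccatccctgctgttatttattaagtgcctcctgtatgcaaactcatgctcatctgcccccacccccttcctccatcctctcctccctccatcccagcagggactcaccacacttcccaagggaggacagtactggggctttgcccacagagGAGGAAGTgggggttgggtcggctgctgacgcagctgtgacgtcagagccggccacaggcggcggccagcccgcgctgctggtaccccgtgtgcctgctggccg
Gm13470, chr2:46442856-46443155, minus strand: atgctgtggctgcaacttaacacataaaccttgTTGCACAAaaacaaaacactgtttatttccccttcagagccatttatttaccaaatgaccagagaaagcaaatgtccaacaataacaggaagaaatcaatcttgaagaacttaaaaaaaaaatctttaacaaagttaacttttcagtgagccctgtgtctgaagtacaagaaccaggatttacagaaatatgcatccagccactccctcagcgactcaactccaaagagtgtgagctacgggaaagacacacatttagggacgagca
The Malat1 window held no match to these 3 motifs, which says only that these letters are absent from that window. Over the 173 windows, GAGGAAGT was present in 21 (12.1%), compared with 3.3% of 11588 windows of non-coding genes and 3.2% of all 32851 windows. TGANTCA was present in 27 windows (15.6%), compared with 9.3% and 7.8%. TTGCNNAA was also present in 27 windows (15.6%), compared with 12% and 10.8%. The cyclic AMP response element TGACGTCA was present in 4 (2.3%, against 1.0% and 1.8%). CCAAT was found in 29.5% of the windows, below the 36.0% of non-coding and 37.4% of all windows, while the GC box GGGCGG was found in 28.9% against 16.3% and 35.7%. Both strands were searched, each motif was counted on its own even where matches overlap, and a match does not show that a factor binds. Some windows of the same gene overlap, as those of Gm13657 do, and each was counted. The comparison windows were not selected for acetylation. The median GC content was 52.3% in the 173 windows, 48.3% in windows of non-coding genes and 52.7% in all windows.

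MicroRNA genes gave a second set of annotated products. Within 10 kb of a region lay 32 of the 1228 microRNA genes of the annotation, beside 23 regions, and 31 of them had a sequence in the RefSeq table (Mir1949 is named only). They encode 53 mature forms with 44 different seeds, the bases 2 to 8 that pair with targets. Of these seeds, 7 were shared by 2 or more forms, and the mature forms of 6 shared seeds are printed with the seed in capitals. Forms with a shared seed can lie beside the same region, as miR-17-5p and miR-20a-5p do.
let-7a-5p: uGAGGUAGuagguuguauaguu
let-7c-5p: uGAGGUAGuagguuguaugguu
let-7d-5p: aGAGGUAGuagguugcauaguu
let-7f-5p: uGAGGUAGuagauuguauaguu
miR-146a-5p: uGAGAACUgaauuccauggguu
miR-146b-5p: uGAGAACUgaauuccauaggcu
miR-17-5p: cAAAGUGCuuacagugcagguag
miR-20a-5p: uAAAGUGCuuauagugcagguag
miR-19a-3p: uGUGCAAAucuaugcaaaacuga
miR-19b-3p: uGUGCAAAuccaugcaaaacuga
miR-221-3p: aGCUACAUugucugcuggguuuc
miR-222-3p: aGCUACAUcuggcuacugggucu
miR-125b-5p: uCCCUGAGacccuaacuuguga
miR-6367: uCCCUGAGacccugguucagga
The let-7 forms came from 2 places. Mirlet7d, Mirlet7f-1 and Mirlet7a-1 lay 8910, 7107 and 6752 bp from one region on chromosome 13, and Mirlet7c-1 lay inside a region of 7785 bp on chromosome 16 together with Mir99a. Mir125b-2 lay 1399 bp from a further region of the same chromosome 16 locus. Mir17, Mir18, Mir19a, Mir20a, Mir19b-1 and Mir92-1, the miR-17-92 cluster known for its role in proliferation, all began within 956 bp of one region on chromosome 14. Mir146, whose product restrains Toll-like receptor signalling, lay 9251 bp from a region of 2515 bp, and Mir146b lay 5262 bp from one of 1509 bp. Mir221 and Mir222 lay 9435 and 8852 bp from 1 of the 9 regions of the X chromosome.

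Covered width is the number of base pairs of a region under peaks of a list. It entered the selection as a minimum of 1 bp in each list. Regions missed by 1 or more of the 7 lists, as where a treatment adds or removes a peak, were left out. The comparisons of width between treatments thus cover only regions with a peak in every list. The consensus width of the 1244 regions ranged from 374 to 23208 bp with a median of 1964.5 bp (quartiles 1360 and 2967.75), and 89 (7.15%) were at least 5 kb wide. Regions within genes held by all 7 lists had a median of 2078 bp and those at gene ends 1729.5 bp. Intergenic regions held by fewer lists were narrower, with medians of 238.5, 575, 802, 952 and 1176 bp for those held by 2, 3, 4, 5 and 6 lists. A wider region is more easily met by 1 bp of a peak, so this order is partly built into the selection.

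Locations were uneven. Chromosome 2 carried 135 of the regions (8.68% of its 1555 consensus regions), chromosome 13 carried 77 (10.05% of 766), chromosome X carried 9 (2.45% of 368) and chromosome Y none of 8. The distance to the nearest protein-coding gene had a median of 24339 bp, with 246 regions within 10 kb, 186 (15.0%) over 100 kb and 13 over 500 kb away. Just inside the 5 kb limit were regions 5001 bp from Il10ra, 5063 bp from Prkce and 5070 bp from Ifnar2, and just outside it were regions 4964 bp from Sqstm1, 4938 bp from Tm4sf5 and 4895 bp from Niban2.

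**Figure D1:**
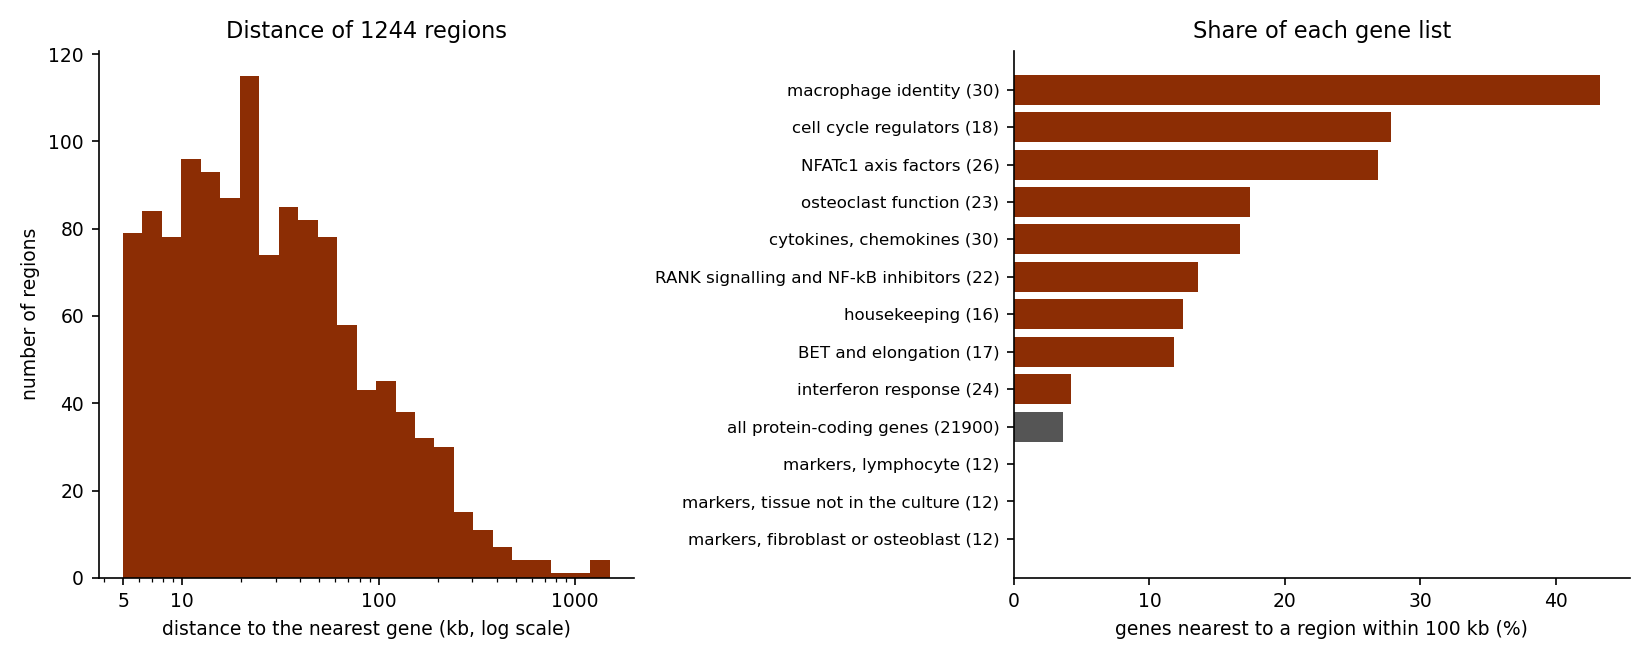
Left, histogram of the distance in kb (log axis) from each of the 1244 intergenic regions to the nearest protein-coding gene. Right, percentage of the genes of each list (number of genes in brackets) that were nearest to at least 1 region within 100 kb. Macrophage identity genes reach 43.3% against 3.6% of all protein-coding genes (grey bar). The gene lists were chosen with earlier results of these data known.

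Genes of macrophage identity often had an intergenic region of this kind as a neighbour. Of 30 such genes, 13 (43.3%) were the nearest coding gene of a region within 100 kb, compared with 796 of all 21900 coding genes (3.6%). They were Cebpb, a leucine zipper factor of myeloid cells, Irf8 and Runx1, further lineage factors, the receptors Tlr2, Tlr4, Cd14, Msr1, Ccr2 and Fcgr1, the integrin Itgam, the adhesion receptor Adgre1, the phosphatase Ptprc and the adaptor Tyrobp. Of 26 transcription factors on the RANKL and NFATc1 axis, 7 (26.9%) were nearest to a region, namely Fos, Irf2, Atf3, Myc, Nfatc1, Jun and Id2. Of 18 cell cycle regulators, 5 (27.8%) were: Cdkn1a, Ccnd1, Btg2, Cdk6 and Btg1. The gene lists were chosen with earlier results of these data known.

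Osteoclast function genes had 4 of 23 (17.4%), namely Cd9 and Cd47, membrane proteins, Dcstamp, a fusion protein of osteoclast precursors, and Siglec15. Cytokine and chemokine genes had 5 of 30 (16.7%), RANK signalling genes and NF-kB inhibitors 3 of 22 (13.6%), housekeeping genes 2 of 16 (12.5%), and BET and elongation genes 2 of 17 (11.8%). The interferon response had 1 of 24 (4.2%), Irf1. Each of 3 lists of 12 genes of lymphocytes, of fibroblasts or osteoblasts and of other tissues had 0. A list is described here by its count only, and genes in gene-poor stretches have more intergenic sequence to be nearest to. Of the 796 nearest genes, 406 (51.01%) also carried peaks of all 7 lists at or within 1 kb of one of their ends, compared with 26.99% of all genes. Of the 49 that were nearest to 3 or more regions within 100 kb, 31 (63.27%) did. Of the 30 macrophage identity genes, 21 carried such peaks. Among all 5910 coding genes with such peaks, 406 were nearest to a region within 100 kb.

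At the library level, the lists of replicates 1 and 3 held 13368 to 17794 peaks covering 16.051 to 25.905 Mb, of which the 1244 regions made up 10.43% to 12.64%. They held no read counts, so depth is unknown. Peaks lay at 10 to 12 of 12 macrophage markers, at 1 or 2 of 12 lymphocyte markers and at 0 of 12 fibroblast or osteoblast markers in each of these lists. The lists of replicate 2 stood apart: RANKL replicate 2 held 141905 peaks over 184.559 Mb, with peaks at 11 of 12 lymphocyte, 6 of 12 fibroblast or osteoblast and 9 of 12 markers of tissues not in the culture. The lists of untreated replicate 2 and RANKL+I-BET replicate 2 were short, with 9893 and 6041 peaks, and lay at 9 and 8 macrophage markers.

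The 3 lists of replicate 2 took no part in the selection and so show how often the regions recur. The untreated list held 834 of 1244 (67.04%), the RANKL list 1120 (90.03%) and the RANKL+I-BET list 535 (43.01%). Intragenic regions held by all 7 lists recurred in 60.95%, 90.4% and 38.46%, and those at gene ends in 78.17%, 99.05% and 54.6%. The intergenic regions held by only 2 to 6 lists recurred in 16.73%, 67.77% and 5.61%. The order gene end, then intergenic, then intragenic was seen in the untreated and RANKL+I-BET lists, and with RANKL the last 2 differed by less than 1 percentage point.

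Recurrence rose with width. In the lowest quartile of width (374 to 1360 bp), 43.9% recurred with untreated replicate 2 and 24.7% with RANKL+I-BET replicate 2, and in the highest (2976 to 23208 bp) 88.1% and 64.0% did. The RANKL list, which covers far more of the genome, went from 87.2% to 94.9%. All 3 lists held 466 regions (37.46%) and none of the 3 held 70 (5.63%). When 50% of a region's length had to be covered, the counts were 290, 887 and 69, so the recurrence in the 2 short lists rests mostly on partial overlap.

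**Figure D2:**
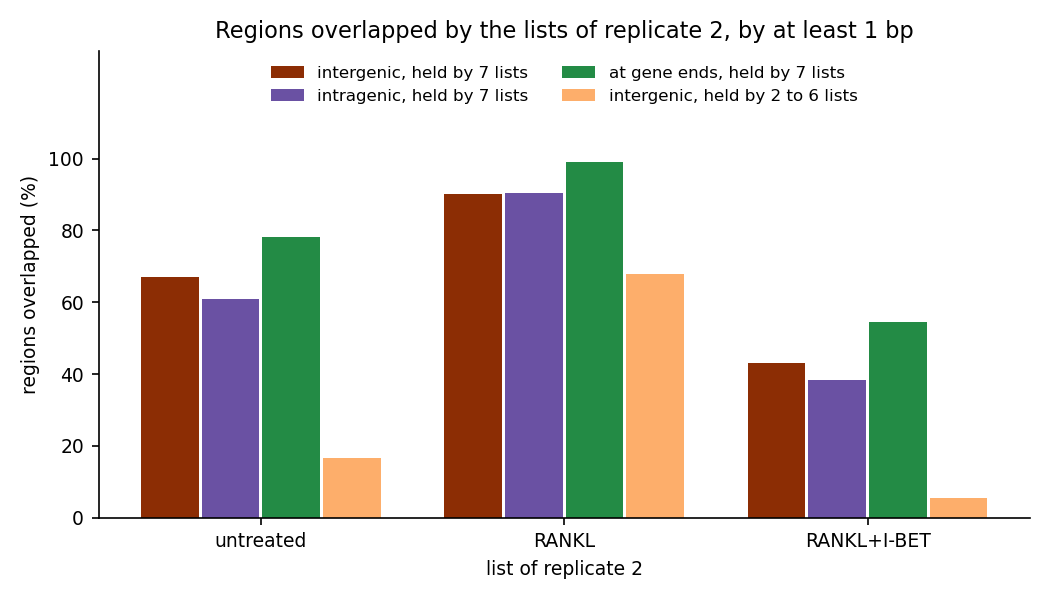
Percentage of regions overlapped by at least 1 bp of a peak in each list of replicate 2, for regions held by all 7 lists of replicates 1 and 3 (intergenic, intragenic, at gene ends) and for intergenic regions held by 2 to 6 of those lists. Bars are single lists without replicates, and the 1244 intergenic regions reach 67.04%, 90.03% and 43.01%.

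Genes of kinds other than protein-coding, pseudogenes included, overlapped 450 of the 1244 regions (36.2%). Of these regions, 392 overlapped a lncRNA, 19 a pseudogene, 15 a transcribed pseudogene, 13 a tRNA and 6 a microRNA. An annotated non-coding start lay inside 139 regions (11.2%). These 139 were wider than the other 1105, with medians of 2229 and 1934 bp. They also recurred more often in replicate 2, at 79.9% against 65.4% in the untreated list, 97.8% against 89.0% with RANKL and 58.3% against 41.1% with RANKL+I-BET. The authors' fold enrichment of the 2 sets was alike, for example with a median of 2.69 against 2.71 in untreated replicate 1 and 3.22 against 3.20 in RANKL replicate 1.

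Malat1, an abundant nuclear lncRNA whose start is printed above, lay in the widest region (chr19:5795843-5819050, GRCm38). Its covered width was 19190 and 19408 bp in the untreated lists, 20237 and 19642 bp with RANKL, 23208 and 22414 bp with RANKL+I-BET and 20241 bp with I-BET alone. The 2 RANKL+I-BET lists were above all others there and the untreated lists were the lowest, but divided by the mean width over all 8993 regions in the same list the highest was untreated replicate 1 (13.69, with 12.27 and 12.09 for RANKL+I-BET). All 3 lists of replicate 2 held it, with 13632, 20125 and 6979 bp.

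The second widest region (chr2:116971322-116992286), 78815 bp from Tmco5, was covered over 17121 to 20819 bp in the 7 lists and was lowest in the 3 lists with I-BET. The third, 17578 bp wide and 8314 bp from the organic anion transporter gene Slco4a1, went the other way: untreated lists covered 12802 and 12130 bp, RANKL lists 13762 and 12678 bp, RANKL+I-BET lists 16230 and 17578 bp and the I-BET list 16678 bp. The fourth lay 54588 bp from Lpp, a focal adhesion protein gene, with 10313 and 17468 bp untreated, 14879 and 17256 bp with RANKL, 9638 and 14801 bp with RANKL+I-BET and 14115 bp with I-BET, where the untreated and RANKL+I-BET lists of replicate 1 were the lowest. Relative to the same list means, the order by I-BET was lost at the Tmco5 region, where the I-BET list (10.4) was above both RANKL lists (10.37 and 10.31), and at the Slco4a1 region, where untreated replicate 1 (9.13) was above RANKL+I-BET replicate 1 (8.58). The other 6 of the 10 widest lay nearest to Rbpj, Ppara, Olfr930, Irf2, Cacng6 and Rgs13. At Cacng6 the region was 9821 bp wide in untreated and RANKL replicate 3 but 1196 to 4245 bp in the other 5 lists.

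Some regions came in groups. Neighbours within 10 kb of each other formed 156 clusters of 2 or more with 356 regions (28.6%), while 888 (71.4%) stood alone. The grouping of other kinds of region was not measured. Of 1224 gaps between neighbouring regions, 17 were within 1 kb and the smallest was 3 bp. Such close neighbours count as separate regions here. There were 127 pairs, 17 clusters of 3, 9 of 4 and 3 of 5. Clustered regions were wider than single ones, with medians of 2418.5 and 1819 bp, and recurred somewhat more often in replicate 2 (70.5% against 65.7% untreated, 92.1% against 89.2% with RANKL, 46.9% against 41.4% with RANKL+I-BET). The clusters of 5 lay between Ptafr, the receptor of platelet-activating factor, and Eya3 on chromosome 4, beside Zfp36l2, an RNA-binding protein gene, on chromosome 17 and beside Snx9, a sorting nexin gene, on chromosome 17. The Ptafr cluster spanned 30919 bp and was covered over 15181 and 16307 bp in the untreated lists, 15730 and 17826 bp with RANKL, 14756 and 14703 bp with RANKL+I-BET and 15601 bp with I-BET. These values overlapped between untreated and RANKL, and the RANKL+I-BET lists were the lowest by a small margin.

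By nearest gene at any distance, the 1244 regions belonged to 871 genes, of which 637 had 1 region and 157 had 2. Zeb2, a zinc-finger transcriptional repressor, had 10 regions, Tomm20, a receptor of mitochondrial protein import, had 8, and Tmco5, Cebpb and Myc had 7 each. Rbpj, the DNA-binding factor of Notch signalling, Ube2e3, a ubiquitin-conjugating enzyme, Eea1, a tether of early endosomes, and Zfp36l2 had 6 each, and Usp25, a deubiquitinase, had 5, as did Reep3, Fos, Snx9 and Klf6. Some of these genes are far from their regions. Distances were 183053 to 525956 bp at Usp25, 117619 to 232953 bp at Eea1 and 31444 to 157993 bp at Ube2e3.

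Locus sums are given as deposited, and RANKL lists were the widest on average: the mean width over all 8993 regions was 1401.8 and 1774.6 bp untreated, 1907.1 and 2020.2 bp with RANKL, 1891.5 and 1853.2 bp with RANKL+I-BET and 1772.9 bp with I-BET. The summed covered width at Zeb2 was 18034 and 22587 bp in the untreated lists, 25717 and 24991 bp with RANKL, 20588 and 12638 bp with RANKL+I-BET and 12848 bp with I-BET. Both RANKL lists were the highest, and 2 of the 3 lists with I-BET were the lowest. The Zeb2 regions fall into 2 places. A near set of 5 lies 79264 to 158554 bp away, and a far set of 5 lies 1127173 to 1324099 bp away and holds the 5 regions farthest from any coding gene, including the start of the lncRNA Gm13470 printed above. A cluster of 3 in the far set was covered over 5866 and 6755 bp untreated, 8039 and 8177 bp with RANKL, 5015 and 2754 bp with RANKL+I-BET and 2010 bp with I-BET. There the lists with I-BET were below all 4 others, and RANKL was above untreated. Divided by the list means, the lists with I-BET (2.65, 1.49 and 1.13) stayed below the others, while RANKL (4.22 and 4.05) and untreated (4.18 and 3.81) overlapped. RANKL replicate 2 and RANKL+I-BET replicate 2 held 0 of these 3 regions and untreated replicate 2 held 2.

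At Cebpb the sums were 13595 and 15267 bp untreated, 19519 and 19019 bp with RANKL, 17578 and 16649 bp with RANKL+I-BET and 15619 bp with I-BET. All lists with RANKL were above the untreated lists, and the addition of I-BET lay between. In untreated replicate 1 the authors' fold enrichment at these regions was near the bottom of the list. It had a median of 1.23 there, with within-list percentiles of 0.09 to 2.84, against a median of 2.37 in untreated replicate 3. The 7 regions lie 24356 to 108792 bp from the gene and 1 of them holds the start of Gm14321. The region nearest to Cebpb varied most: it was covered over 531 and 994 bp untreated, 3050 and 3066 bp with RANKL, 1068 and 2890 bp with RANKL+I-BET and 1889 bp with I-BET.

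Myc, a growth-promoting transcription factor, had regions 47279 to 401391 bp away, 2 of them within the lncRNA gene Pvt1. Their summed width was 7600 and 11312 bp untreated, 12770 and 12913 bp with RANKL, 10506 and 10248 bp with RANKL+I-BET and 9668 bp with I-BET. RANKL was again the highest, and the lists with I-BET lay within the range of the untreated lists. The region at 390794 bp was covered over 148 bp in untreated replicate 1 and over 2195 bp in untreated replicate 3, so a single region can differ as much within a group as between groups.

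Rbpj had the widest region of these genes after Tmco5, of 12201 bp at a distance of 7595 bp. Its 6 regions summed to 22465 and 24864 bp untreated, 28100 and 28463 bp with RANKL, 23768 and 26092 bp with RANKL+I-BET and 23956 bp with I-BET. Tomm20 gave 22369 and 19853 bp untreated, 25229 and 26569 bp with RANKL, 20370 and 15988 bp with RANKL+I-BET and 16702 bp with I-BET. Eea1 gave 12607 and 14744 bp, 16776 and 17022 bp, 13747 and 14359 bp, and 12538 bp in the same order. At all 3 genes the RANKL lists were the highest, and untreated and RANKL+I-BET overlapped. In replicate 2 the untreated, RANKL and RANKL+I-BET lists held 4, 1 and 1 of the 6 Eea1 regions. The same lists held 5, 8 and 5 of the 8 regions at Tomm20 and 6, 6 and 4 of the 6 at Rbpj.

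Other genes did not share that order. Ube2e3 had 14687 and 14260 bp untreated, 13986 and 15082 bp with RANKL, 8292 and 10722 bp with RANKL+I-BET and 12105 bp with I-BET, so that the 3 lists with I-BET were below the 4 without it. The 6 Ube2e3 regions hardly recurred in replicate 2, whose untreated, RANKL and RANKL+I-BET lists held 1, 0 and 1 of them. Usp25, with regions that include let-7c and Mir99a, had 16667 and 19356 bp untreated, 14637 and 18461 bp with RANKL, 19753 and 21401 bp with RANKL+I-BET and 19893 bp with I-BET, so that the lists with I-BET were above the others. Zfp36l2 ranged from 9278 bp in RANKL+I-BET replicate 3 to 15676 bp with I-BET alone. Tmco5 ranged from 29658 bp in untreated replicate 1 to 35301 bp in RANKL replicate 3.

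Divided by the list means, the RANKL lists were the 2 highest at only 1 of these 10 genes, Myc (6.70 and 6.39, with untreated at 5.42 and 6.37), and no longer at Zeb2, Tomm20, Cebpb, Rbpj and Eea1. On that scale the 3 lists with I-BET were below the 4 without it at Zeb2, Tomm20, Tmco5, Ube2e3 and Eea1. The mean over all 1244 regions had the same order, so it was not particular to these genes. That mean was 1.035, 1.041 and 1.061 with I-BET against 1.073 to 1.163 without it. At Zeb2 the lists with I-BET stood at 10.88, 6.82 and 7.25 against 12.37 to 13.48 without I-BET. At Ube2e3 they stood at 4.38, 5.79 and 6.83 against 7.33 to 10.48. At Usp25 the lists with I-BET (10.44, 11.55 and 11.22) no longer stood above the untreated lists (11.89 and 10.91).

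**Figure D3:**
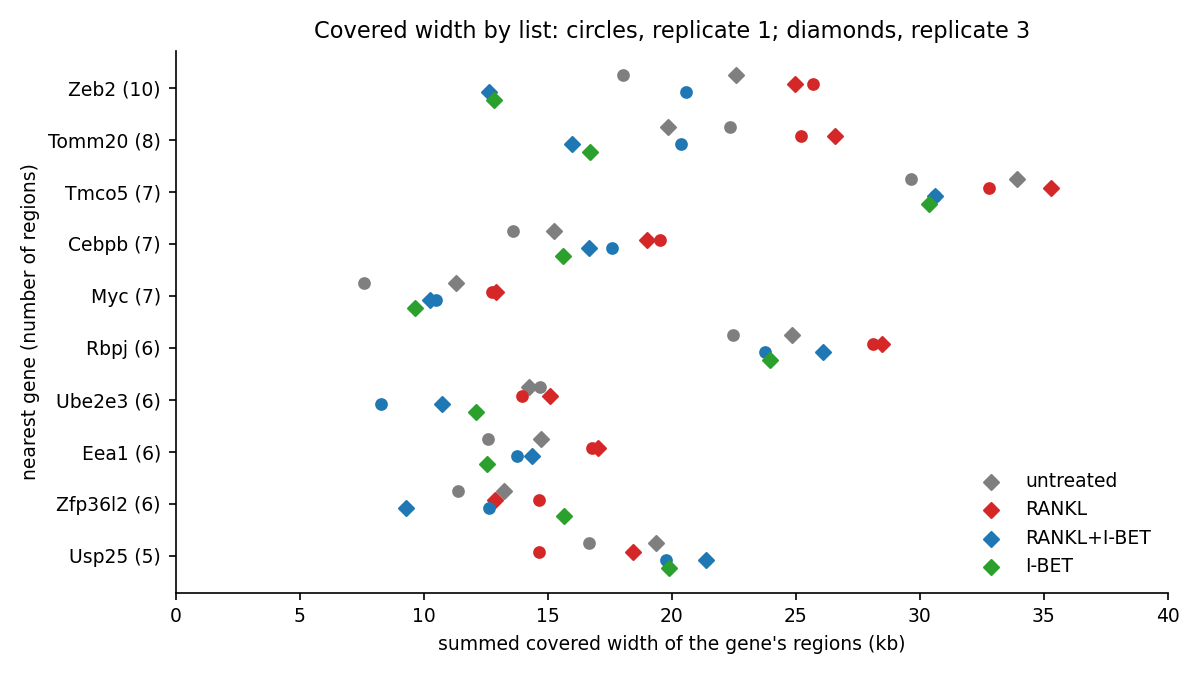
Summed covered width in kb of the regions nearest to each of the 10 genes with the most regions (number in brackets), 1 point per list, coloured by treatment, with circles for replicate 1 and diamonds for replicate 3. RANKL lists (red) lie farthest right at Zeb2, Tomm20, Cebpb, Myc, Rbpj and Eea1, and lists with I-BET (blue, green) lie left of the rest at Ube2e3 and right of the rest at Usp25. Widths are as deposited, and relative to list-wide mean widths RANKL lists are the 2 highest only at Myc and the order at Usp25 is lost.

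Among the genes fixed by list, Fos, an AP-1 subunit induced by RANKL, had 5 regions 8255 to 55499 bp away. They summed to 8806 and 10626 bp untreated, 11956 and 12202 bp with RANKL, 11095 and 10903 bp with RANKL+I-BET and 9638 bp with I-BET, so RANKL was the highest and I-BET lay within the untreated range. Divided by the list means, RANKL (6.27 and 6.04) and untreated (6.28 and 5.99) overlapped at Fos, and the lists with I-BET (5.87, 5.88 and 5.44) were the lowest. The region 35348 bp from Fos was covered over 576 and 1832 bp untreated and over 2618 and 2871 bp with RANKL, whereas the one 8255 bp away had 6418 and 6459 bp untreated and 6405 and 5946 bp with RANKL. Irf2, an interferon regulatory factor, had 3 regions with 7530 and 13107 bp untreated and 13811 and 13302 bp with RANKL. Atf3, a stress-induced leucine zipper factor, had 3 with 8037 and 5137 bp untreated and 8203 and 6417 bp with RANKL. At Irf2 both RANKL lists were above both untreated lists, and at Atf3 the groups overlapped. As deposited, RANKL was wider than untreated within each replicate number at both genes. Divided by the list means, this order held at Irf2 only in replicate 1 (7.24 against 5.37 untreated), and replicate 3 reversed (6.58 against 7.39). At Atf3 it held only in replicate 3 (3.18 against 2.89 untreated), and replicate 1 reversed (4.3 against 5.73).

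Nfatc1, the master regulator of osteoclast differentiation, had 1 region at 49353 bp, covered over 464 and 3341 bp untreated and 1598 and 3341 bp with RANKL, where replicate 3 was wider in both groups. At Ccr2, the receptor that recruits monocytes, 2 regions summed to 2602 and 2490 bp untreated, 3940 and 4109 bp with RANKL, 3042 and 2971 bp with RANKL+I-BET and 3096 bp with I-BET. Here the values did not overlap: RANKL was the highest, lists with I-BET came next and untreated was the lowest. Divided by the list means, RANKL stayed the highest at Ccr2 (2.07 and 2.03), while untreated (1.86 and 1.40) overlapped the lists with I-BET. At Ets2, a transcription factor gene, a cluster of 3 regions was wider in every treated list than in the untreated lists, with 2453 and 4966 bp untreated, 7362 and 8921 bp with RANKL, 8218 and 8485 bp with RANKL+I-BET and 6457 bp with I-BET (a locus picked after its values were seen).

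Regions by 4 of 5 inflammatory genes were narrowest in untreated replicate 3. Near Il1b the 2 untreated lists covered 1458 and 393 bp, near Ptgs2, the inducible cyclooxygenase, 1619 and 448 bp, near Cxcl1 1236 and 295 bp and near Ccl3 2423 and 1290 bp, with replicate 1 given first. RANKL lists covered 2143 and 1671 bp near Il1b, 1512 and 1489 bp near Ptgs2, 1451 and 1196 bp near Cxcl1 and 2080 and 1379 bp near Ccl3. In all 4, untreated replicate 3 was the lowest of the 7 lists, which it was in 166 (13.3%) of the 1244 regions, while near Ccl2 the lowest was untreated replicate 1 with 943 bp against 2652 bp in replicate 3.

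At microRNA loci the same contrasts can be read per list. The region before the Mir17 cluster was covered over 268 and 2667 bp untreated, 2458 and 2853 bp with RANKL, 2139 and 2432 bp with RANKL+I-BET and 2128 bp with I-BET. All lists but untreated replicate 1 were close to each other. Near Mir146 the widths were 2160 and 2160 bp untreated, 2274 and 2515 bp with RANKL, 2418 and 1882 bp with RANKL+I-BET and 1274 bp with I-BET. Near Mir146b they were 199 and 1151 bp untreated, 1509 and 1509 bp with RANKL, 1209 and 966 bp with RANKL+I-BET and 1056 bp with I-BET. As deposited, RANKL was the highest at both apart from RANKL+I-BET replicate 1 at Mir146. These widths were not divided by the list means, so the wider RANKL lists are not allowed for.

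Across all 1244 regions the mean covered width was 1630.9 and 1904.3 bp in the untreated lists, 2051.2 and 2172.1 bp with RANKL, 1957.7 and 1929.0 bp with RANKL+I-BET and 1881.9 bp with I-BET. Group means were 1767.6 ± 193.3 bp (SD, n = 2) untreated, 2111.6 ± 85.5 bp with RANKL and 1943.3 ± 20.3 bp with RANKL+I-BET. RANKL exceeded untreated by 344.0 bp, RANKL+I-BET was lower than RANKL by a difference of -168.3 bp and exceeded untreated by 175.7 bp, and the values of these groups did not overlap. Without untreated replicate 1, RANKL exceeded untreated by 207.3 bp and RANKL+I-BET exceeded it by 39.0 bp, and without untreated replicate 3 the latter was 312.4 bp. Without RANKL replicate 3, RANKL+I-BET differed from RANKL by -107.9 bp. The two-sided exact permutation test gave p = 0.333 for each of the 3, the smallest value that 2 lists against 2 allow. Relative to the mean over all 8993 regions held by the 7 lists, the mean of the intergenic regions was 1.163 and 1.073 untreated. It was 1.076 and 1.075 with RANKL, 1.035 and 1.041 with RANKL+I-BET and 1.061 with I-BET. All lists with I-BET were thus below all lists without it. On that scale RANKL was lower than untreated by a difference of -0.043 and RANKL+I-BET was the lowest. The difference between RANKL and untreated rests on untreated replicate 1, without which RANKL exceeded untreated by 0.002. The greater width with RANKL was thus shared by the other regions of the same lists.

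**Figure D4:**
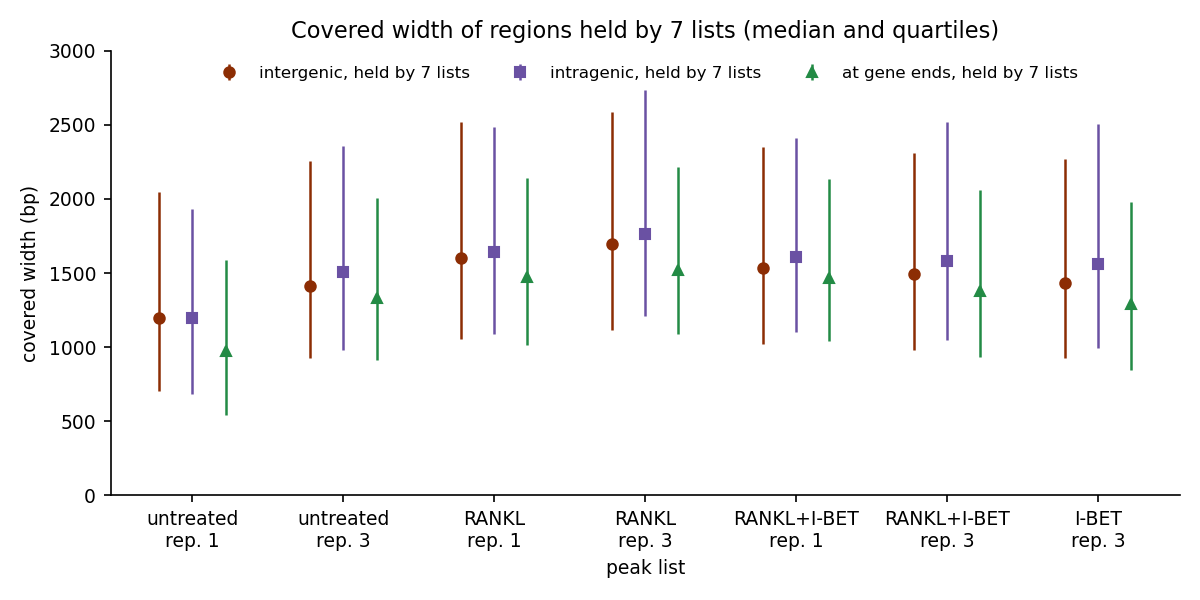
Covered width in bp (median as symbol, quartiles as bars) of regions held by all 7 lists, for intergenic (circles), intragenic (squares) and gene-end regions (triangles), in each list of replicates 1 and 3. Medians of the intergenic regions run from 1199.5 bp in untreated replicate 1 to 1698 bp in RANKL replicate 3, and the other 2 kinds rise and fall with them.

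Region by region, untreated replicate 1 was the narrowest list in 487 cases (39.1%) and RANKL replicate 3 the widest in 345 (27.7%). The ratio of the widest to the narrowest list had a median of 2.05, was under 1.5 in 256 regions and over 5 in 115. As deposited, both RANKL lists were wider than both untreated lists in 440 intergenic regions (35.4%, against 38.0% of all 8993) and narrower in 47 (3.8%, against 2.91%). After each list was centred on its median log2 width over the 8993 regions, 143 were wider (11.5%, against 13.8%) and 287 narrower (23.1%, against 20.6%). For RANKL+I-BET against RANKL, 333 were narrower as deposited (26.8%, against 21.7%) and 116 wider (9.3%, against 10.5%), and after centring 216 were narrower (17.4%, against 13.7%) and 200 wider (16.1%, against 19.9%). For RANKL against untreated the direction turned with the scaling, among the intergenic regions as among all 8993. Most of these shares lie near those of all regions held by 7 lists.

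A comparison of the 3 lists with I-BET and the 4 without it was added after the Zeb2 and Ube2e3 values were seen. After centring, all lists with I-BET were narrower than all lists without it at 54 intergenic regions (4.34%, against 2.36% of all 8993) and wider at 24 (1.93%, against 2.8%). As deposited, 36 were narrower (2.89%, against 1.52%) and 33 wider (2.65%, against 2.76%). On that scale the widest separation was at a region 130081 bp from Ube2e3. After centring it was at a region on chromosome 12 (chr12:114255397-114257688), 708982 bp from Adam6a. The Adam6a region was covered, as deposited, over 1256 and 1678 bp untreated, 2292 and 2292 bp with RANKL, 194 and 479 bp with RANKL+I-BET and 977 bp with I-BET. Next after centring came a region 125968 bp from Ube2e3 with 2377 and 1828 bp untreated, 2300 and 2826 bp with RANKL, 621 and 766 bp with RANKL+I-BET and 1180 bp with I-BET. A region 45167 bp from St3gal5, a ganglioside synthase gene, had 1662 and 1765 bp, 1680 and 1775 bp, 1126 and 1012 bp, and 738 bp in the same order. Of the 54 regions, 4 were nearest to Zeb2, 3 to Eea1 and 2 each to Ube2e3, Rbpj and Adam6a.

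Across the 8993 regions, limma on centred log2 covered width called none of the intergenic regions at an adjusted p under 0.05 (Benjamini-Hochberg), in any of 4 comparisons. The share called among all 8993 was 0% in each. For RANKL against untreated, 62 intergenic regions (4.98%) had an unadjusted p under 0.05, compared with 4.2% of all, the median log2 difference was -0.11 and the smallest adjusted p was 0.631. For RANKL+I-BET against RANKL, 41 (3.3%, against 2.03%) had one, with a median of -0.02 and a smallest adjusted p of 0.833. RANKL+I-BET against untreated gave 99 (7.96%, against 4.7%), a median of -0.13 and 0.827, and I-BET against untreated gave 77 (6.19%, against 5.73%), a median of -0.05 and 0.255. The 3 comparisons with untreated share the same untreated lists. The last rests on a single I-BET list, which is assumed to vary like the other groups. The result depended on untreated replicate 3: without it, 42 regions were called for RANKL (39 wider, 3 narrower), 49 for RANKL+I-BET (41 wider, 8 narrower) and 36 for I-BET against untreated (22 wider, 14 narrower). In that fit the untreated group is 1 list, and 3.38%, 3.94% and 2.89% of the intergenic regions were called against 5.77%, 6.12% and 3.78% of all 8993.

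Fold enrichment over background, the authors' own value for each peak, did not set these regions apart within a list. The median over the 1244 regions was 2.71 in untreated replicate 1, where the median of all peaks was 2.62, and 2.41 in untreated replicate 3, equal to that of all its peaks. With RANKL it was 3.20 and 2.53 (all peaks 3.12 and 2.54), with RANKL+I-BET 3.56 and 2.50 (all peaks 3.47 and 2.50) and with I-BET 2.56 (all peaks 2.55). The median within-list percentile of the regions ran from 49.39 to 56.33. Medians followed the replicate number more than the treatment, with both RANKL-treated lists of replicate 1 above every list of replicate 3. The highest value was 11.87 in RANKL+I-BET replicate 1 and 6.48 in untreated replicate 3. Each list comes from its own peak calling, so no test of fold between lists was made. A region met by several peaks of a list took the highest of their values, whereas the median of all peaks counts each peak.

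**Figure D5:**
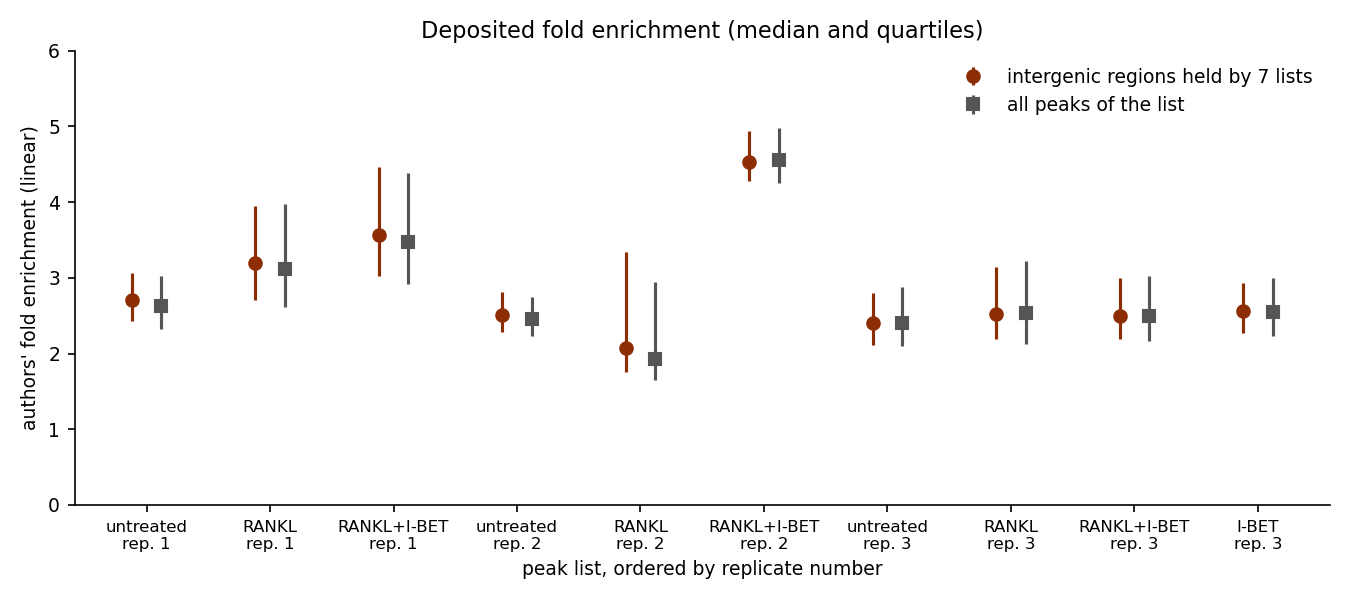
The authors' fold enrichment (linear scale, median as symbol and quartiles as bars) of the peaks over the 1244 intergenic regions (circles) and of all peaks of the same list (squares), for all 10 lists ordered by replicate number. In replicates 1 and 3 the circle lies within 0.1 of the square in each list, and levels differ between lists more than between the 2 sets.

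Ranked by the lowest of their 7 within-list percentiles, the most evenly high region was chr1:155058153-155060450, 35916 bp from the immediate early gene Ier5, with the start of the lncRNA Gm41980 inside it. Its fold was 3.29 and 3.0 untreated, 5.48 and 7.92 with RANKL, 4.30 and 3.18 with RANKL+I-BET and 3.07 with I-BET, and its percentile ran from 73.32 in RANKL+I-BET replicate 1 to 99.82 in RANKL replicate 3. The next lay nearest to Pabpc2, Cmklr1, Pdcd1lg2, S1pr1, Pttg1ip2, Ptprc, Eif4g2 and Pfpl, and the tenth was the Malat1 region. Cmklr1 encodes the chemerin receptor of macrophages, Pdcd1lg2 the checkpoint ligand PD-L2 and Ptprc the leukocyte phosphatase CD45. The region 15678 bp from Ptprc was narrow, with 517 and 606 bp untreated, 1036 and 645 bp with RANKL, 1041 and 552 bp with RANKL+I-BET and 618 bp with I-BET, where the 2 treated lists of replicate 1 were the widest. Its fold was 3.86 and 4.06 untreated, 3.71 and 3.85 with RANKL, 5.0 and 2.70 with RANKL+I-BET and 3.03 with I-BET. The Malat1 region was the only one among the first 10 by both fold percentile and width.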

How the data were processed

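H3K27ac was measured in 10 immunoprecipitated libraries. FastQC, Bowtie2, MACS2 and the build mm10 (GRCm38) are named, per the submitters' processing notes. Versions and settings, and whether lists were called against an input, are not given in the sources used here. The 10 input libraries were not analysed here. The deposited broad-peak lists give, per the layout of the files, a score (10 times the −log10 q), the authors' fold enrichment as a linear ratio, and the authors' −log10 p and q. These values were ranked only within a list, and fold was described between lists without a test.

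Covered width was computed from the peaks. limma 3.58.1 (R 4.3.3, trended prior, Benjamini-Hochberg) was fitted to log2 covered width over all regions held by 7 lists, each list centred on its median, with 4 groups in 1 fit, after a test on simulated data. Differences of group means were given a two-sided exact permutation p (scipy 1.17.1). Genes came from RefSeq GRCm38.p6 (21900 protein-coding) without strand, so distances run to either gene end. The regions named were the 10 widest, the 10 of highest minimum percentile of fold, those nearest the distance limit, the 5 farthest from genes, those overlapping non-coding genes with the highest percentile, microRNA genes within 10 kb and the clusters and genes with the most regions. Of the genes tied for the last place among those with most regions, the one with the greatest total width was taken. The members and lists were chosen with earlier results of these data known. Stricter peaks, other distances and consensus rules, scalings and omitted libraries were tried. The nearest gene of 1 named region is not reported here.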

Additional observations from a re-analysis of the deposited data

How the results depend on the processing

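The number of regions was 1244. It was 575 when each list had to cover 50% of a region, 288 with peaks of −log10 q of at least 2, 0 at 5 or more, 466 when the 3 lists of replicate 2 had to hold it too, 624 with genes of every kind excluded and 235 with each list reduced to its best peaks over 16.05 Mb. Other distances and consensus rules gave 998 to 1462, and leaving out a list 1256 to 1399. Clusters held 228 regions with gaps up to 5 kb and 633 up to 50 kb. With 50% coverage, replicate 2 held 290 (untreated) and 69 (RANKL+I-BET). Relative to all regions held by 7 lists, the difference in mean width was -0.043 for RANKL and -0.08 for RANKL+I-BET against untreated, reversals whose cause was not tested. On that scale, without untreated replicate 1, they were 0.002 and -0.035, an alternative chosen after seeing the data. Leaving out a list gave differences in bp (lowest without untreated replicate 1 for both comparisons with untreated) of 207.3 to 480.7 bp, -228.7 to -107.9 bp and 39.0 to 312.4 bp.

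limma calls stayed at 0 without centring, with full peak width, with all consensus regions plus 100 bp and without a trend. Leaving out a list gave 0 to 42 for RANKL, 0 for RANKL+I-BET against RANKL, 0 to 49 for RANKL+I-BET and 0 to 36 for I-BET against untreated, the highest without untreated replicate 3. With a replicate block the calls were 0 as well. Lists share only a number: their deviations from the group means correlated across regions with r of 0.155, 0.161 and 0.266 for the 3 pairs of groups. The lists hold no counts, so what depth limits cannot be stated.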
